A study of Homo sapiens with 24 samples.

Results

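The genes described here are 9 heat shock chaperones and co-chaperones and the transcription factor that drives them: HSPA1A, HSPA1B, HSPA8, HSPH1, DNAJB1, BAG3, HSP90AA1, HSPD1, HSPB1 and HSF1. They were taken by symbol from the 60617 gene identifiers of the count matrix, each of the 10 symbols mapped to 1 identifier, and all 10 were among the 13098 genes with enough counts to be tested. No measured value entered the choice, although the set was drawn up with earlier results of these data known.

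Chaperones of this kind hold and refold proteins that have lost their shape. HSP70 proteins (HSPA1A, HSPA1B and HSPA8) bind unfolded stretches in a cycle that J-domain proteins such as DNAJB1 start and that exchange factors such as HSPH1 and BAG3 release, HSP90 matures kinases and receptors, HSPB1 keeps unfolding proteins from clumping, and HSPD1 folds proteins inside mitochondria. HSF1 is held inactive by chaperones in resting cells; when unfolded proteins draw the chaperones away it forms trimers, binds heat shock elements (inverted repeats of a short unit, written GAANNTTC or TTCNNGAA for 2 units) and switches on the chaperone genes, so its activity is set by the protein and not mainly by its own transcript.

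The cells were THP1, a human monocytic leukaemia line, turned into macrophages with the phorbol ester PMA at 10 ng/ml for 48 hours and then kept 48 hours without it. They were wild type or CD33 knockout; CD33, a Siglec, binds sialic acid and signals through SHP-1. Both were transduced with lentivirus from HEK-293FT cells and selected with puromycin. The empty vector pLKO.1 (shCTRL) and the hairpin against PTPN6 (shPTPN6), the gene of the phosphatase SHP-1, thus share the virus and the drug. The control carries no hairpin, so effects of carrying a hairpin cannot be told apart from loss of PTPN6. Below, knockdown means shPTPN6 against shCTRL within a genotype. The groups are WT_shCTRL, WT_shPTPN6 and CD33KO_shCTRL with 6 libraries each and CD33KO_shPTPN6 with 5; replicate 2 of the last was not analysed here. The labels do not say whether the knockout is 1 clone or a pool, nor whether replicates are separate cultures, so p-values measure only the spread between these libraries. The medium, shared by all groups, held heat-inactivated chicken serum; no heat shock or other stress treatment is named.

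Total counts ran from 2024032 to 6269304 per library, with knockout libraries at 2024032 to 3749258 and wild-type ones at 3318001 to 6269304. PTPN6 fell by 2.08 ± 0.11 (log2 fold change ± SE) with the hairpin in wild type and by 2.37 ± 0.17 in the knockout, and CD33 was lower in the knockout by a log2 fold change of -1.16 ± 0.10 (edgeR quasi-likelihood adjusted p = 2.07e-33, 2.07e-24 and 3.31e-19); the labels do not place the edit, so 3' end counts of CD33 check it only in part. In wild type the knockdown raised CD33 by 0.97 ± 0.07 (edgeR adjusted p = 4.95e-23). In the knockout the CD33 estimate was 0.22 ± 0.13 (edgeR adjusted p = 0.185). PTPN6 was lower in the knockout, at -0.23 ± 0.10 with the control vector and -0.52 ± 0.195 with the hairpin (edgeR adjusted p = 0.0372 and 0.0166). The part of these shifts in the results below was not tested. Of 12 macrophage and myeloid markers 11 were tested, and 11 had a mean of at least 1 CPM (read counts scaled to library size and TMM factor) in every group. Marker sums run over all listed genes, tested or not. The 12 summed to 4584 to 5008 CPM for WT_shCTRL, 6352 to 6769 for WT_shPTPN6, 3099 to 3292 for CD33KO_shCTRL and 5642 to 6071 for CD33KO_shPTPN6. Single markers went both ways in CD33KO_shCTRL against WT_shCTRL, 2 being higher and 7 lower by edgeR's test (28.3% and 28.4% of all tested genes). Mean LYZ went from 26.1 to 3.49 CPM and CD163 from 23.0 to 2.41, while CD14 went from 281 to 610 CPM. Fibroblast and endothelial markers (7 of 9 tested) summed to 185 to 212, 385 to 452, 433 to 476 and 730.4 to 784 CPM in the same order, epithelial and HEK-293 markers (3 of 8 tested) to 46.6 to 65.2, 64.1 to 104, 105 to 139 and 90.8 to 113 CPM, and lymphoid markers (2 of 8 tested) to 5.56 to 18.0 CPM over all groups; EPCAM, CD3E and CDH5 were at 0 in CD33KO_shPTPN6. Mitochondrial transcripts took 5.86% to 6.54% of counts in WT_shCTRL, 7.85% to 8.70% in WT_shPTPN6 and 6.36% to 7.13% in the knockout groups. These markers and shares differ between the groups along with the chaperones, and their part in the results was not tested. In bulk RNA, more cells expressing a gene and more RNA of it per cell cannot be told apart.

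Heat shock elements were looked for in the promoters of these genes. RefSeq promoters (GRCh38.p14) were searched for 9 of the 10 genes, with several starts for DNAJB1, HSP90AA1 and HSPD1 (13 promoters in all). HSF1 was left out of this search, so nothing is said of its promoter. Within the 250 bases upstream of at least 1 start, 7 of those 9 genes held a 2-unit element and 3 (HSPA8, HSP90AA1 and HSPD1) a 3-unit element, in which a further unit follows after 2 bases; each form was searched on both strands, and every 3-unit match also holds a 2-unit one. Counted the same way, 13.96% of the 27305 genes with a promoter held a 2-unit and 0.56% a 3-unit element. CCAAT, the box bound by NF-Y, stood in 5 of the 9 and in 37.00% of all genes, searched on both strands. HSPH1 and BAG3 had no heat shock element of these letters in this window. Each site below is given 5′ to 3′ on the strand of its gene, with the element in capitals.

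HSPA8, distal element, chr11:123062346-123062374, minus strand, holding 3 units from 230 bases upstream: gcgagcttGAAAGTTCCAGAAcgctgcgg
HSPA8, proximal element, chr11:123062171-123062199, minus strand, holding 3 units from 55 bases upstream: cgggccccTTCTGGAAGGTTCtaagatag
HSP90AA1, chr14:102087104-102087133, minus strand, a 3-unit and a 2-unit element from 88 bases upstream: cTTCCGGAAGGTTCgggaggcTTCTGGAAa
HSPD1, chr2:197500062-197500090, minus strand, overlapping 3-unit elements from 245 bases upstream: gcattTTCTGGAAAGTTCTGGAAccgagc
DNAJB1, distal element, chr19:14518456-14518485, minus strand, 2 units from 77 bases upstream: cgggcggggcgGAAGGTTCtggagggggct
DNAJB1, proximal element, chr19:14518426-14518455, minus strand, 2 units from 47 bases upstream: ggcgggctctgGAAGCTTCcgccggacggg
HSPB1, chr7:76302480-76302509, plus strand, 2 units from 182 bases upstream: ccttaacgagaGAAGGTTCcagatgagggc

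HSPA1A and HSPA1B, neighbours on chromosome 6 that encode almost the same protein, are shown with more of their promoters because so much of the sequence before their starts is shared. Aligned without gaps over 171 bases that end upstream of the RefSeq starts, 164 were identical (95.9%), and both held the same 2-unit element, 106 and 105 bases upstream of the RefSeq start.
HSPA1A, chr6:31815293-31815463, plus strand: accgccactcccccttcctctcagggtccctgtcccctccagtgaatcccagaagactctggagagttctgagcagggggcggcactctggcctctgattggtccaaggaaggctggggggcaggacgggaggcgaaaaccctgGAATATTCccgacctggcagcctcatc
HSPA1B, chr6:31827489-31827659, plus strand: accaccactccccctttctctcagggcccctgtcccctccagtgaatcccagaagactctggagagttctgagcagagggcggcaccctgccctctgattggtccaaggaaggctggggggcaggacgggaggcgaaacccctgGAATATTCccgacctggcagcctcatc

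In CD33 knockout macrophages with the control vector, 9 of the 10 genes were higher than in wild type and HSPB1 was lower. The calls rest on edgeR's quasi-likelihood test with Benjamini-Hochberg adjustment over all genes, at an adjusted p under 0.05, under which 28.3% of all tested genes were higher and 28.4% lower. The median log2 fold change was 0.76 over the 10 genes and -0.01 over all genes tested. Groups did not overlap for 9 of the 10, HSPA1A being the exception, and for 34.1% of all tested genes in either direction. Together the 10 genes took 0.281% to 0.293% of counts in WT_shCTRL libraries and 0.386% to 0.423% in CD33KO_shCTRL. This share leans on HSP90AA1, which held 114328 reads over all libraries, against 31286 for HSPB1, the next of the 10. HSPA1B differed most, and HSF1 itself least among the called rises.

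PTPN6 knockdown in wild type split the genes. HSPA1B, BAG3, HSF1, HSPB1 and DNAJB1 rose, 5 of 10 against 30.2% of all genes, while HSPD1 and HSP90AA1 fell, 2 of 10 against 30.4%. HSPA1A, HSPA8 and HSPH1 were not called. The median over the 10 genes was 0.25, against 0.00 over all genes, and the share of counts they took was 0.236% to 0.273%.

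The effect of the knockdown in the knockout was lower than its effect in wild type for 6 of 10 genes and higher for none, where 13.9% of all genes had a lower and 14.5% a higher effect by the same test. The 6 are HSPA1B, HSPD1, HSPH1, BAG3, HSPA8 and HSPB1, and the other 4 also had negative estimates that were not called. This difference of the 2 knockdown effects, called the interaction below, had a median of -0.37 over the 10 genes and 0.00 over all genes.

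**Figure D1:**
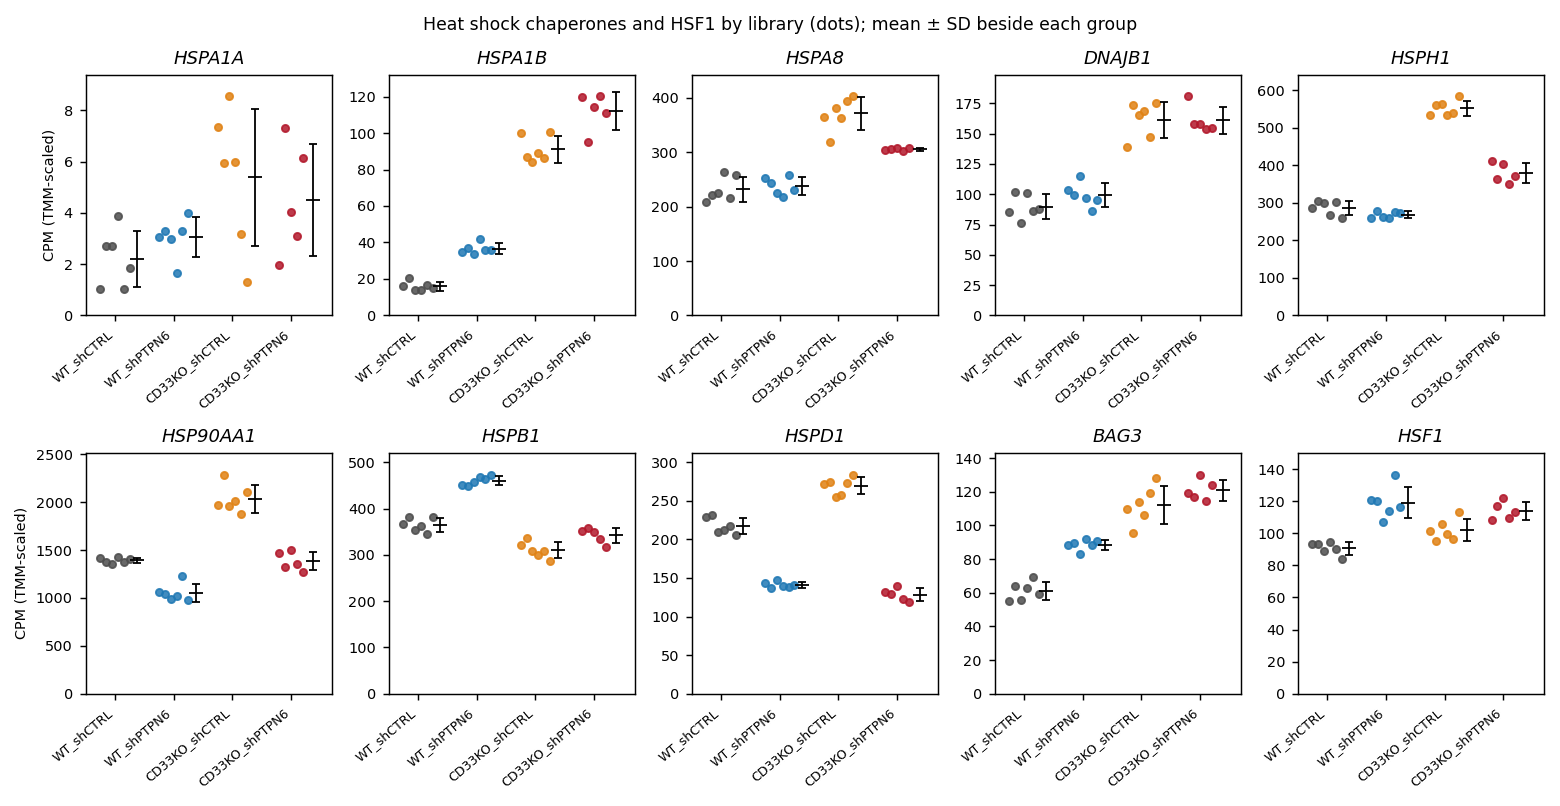
Level of each gene in every library, in CPM scaled by TMM (vertical axis from 0, own scale per gene), in the 4 groups; dots are libraries and the bar beside each group is the mean ± SD. HSPA1B rises from 13.7 to 20.3 CPM in WT_shCTRL to 84.1 to 101 CPM in CD33KO_shCTRL, whereas HSPB1 is highest in WT_shPTPN6, at 449 to 473 CPM.

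HSPA1B (ENSG00000204388, chromosome 6, 31827735 to 31830255 on the plus strand, 1 exon) encodes the stress-inducible HSP70 and is overlapped by the annotated gene AL671762.1 on the same strand. HSPA1B stood at 13.7 CPM in the lowest WT_shCTRL library, 15.5 at the median and 20.3 in the highest, and at 33.4, 35.8 and 42.1 CPM in WT_shPTPN6. In CD33KO_shCTRL the lowest, median and highest values were 84.1, 87.8 and 101 CPM, and the CD33KO_shPTPN6 replicates 1, 3, 4, 5 and 6 held 119.5, 95.1, 114, 120.1 and 111 CPM. Every WT_shPTPN6 library was above every WT_shCTRL library and every knockout library above both, while the 2 knockout groups overlapped. The means rose from 16.0 ± 2.39 to 91.2 ± 7.41 CPM with the knockout (SD, n = 6 and 6), a log2 fold change of 2.51 ± 0.09 or 5.70-fold (edgeR quasi-likelihood adjusted p = 7.14e-49). The knockdown raised HSPA1B in wild type by 1.18 ± 0.09 and in the knockout by 0.30 ± 0.08 (edgeR adjusted p = 1.66e-21 and 0.00108), and these effects differed by -0.88 ± 0.12 (edgeR adjusted p = 3.03e-09). It was the only one of the 10 genes higher in all 5 comparisons of groups, and with both changes together it stood 7.01-fold above WT_shCTRL.

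HSPA1A (ENSG00000204389, chromosome 6, 31815464 to 31817946 on the plus strand, 1 exon) is the neighbouring copy with nearly the same protein, and it was counted at 3 to 23 reads per library. HSPA1A stood at 1.02, 2.28 and 3.87 CPM (lowest, median, highest) in WT_shCTRL, against 1.64, 3.19 and 3.99 CPM in WT_shPTPN6. The CD33KO_shCTRL libraries ran from 1.32 over 5.98 to 8.54 CPM, and CD33KO_shPTPN6 replicates 1, 3, 4, 5 and 6 held 1.98, 7.31, 4.04, 3.09 and 6.13 CPM. All 4 groups overlapped. The knockout was higher by 1.22 ± 0.32 (edgeR quasi-likelihood adjusted p = 0.000543), and the knockdown estimates were 0.46 ± 0.31 in wild type (95% interval -0.16 to 1.08) and -0.18 ± 0.34 in the knockout (-0.86 to 0.49), neither called (edgeR adjusted p = 0.201 and 0.706). Without WT_shCTRL replicate 4 the former was called (0.74, edgeR adjusted p = 0.0498). In a check of the last 500 bases of each annotated transcript in windows of 50 bases, 22.2% of the windows of HSPA1A also occurred in another gene, mainly HSPA1B, and 1.1% of those of HSPA1B, so the counts of HSPA1A are uncertain. With both genes summed into 1 row, the knockout effect was 2.40 and the knockdown effects 1.11 in wild type and 0.28 in the knockout, all called (edgeR adjusted p = 1.89e-49, 1.47e-21 and 0.00169). Over all libraries HSPA1A held 273 reads and HSPA1B 3976, so the summed row follows HSPA1B and says little of HSPA1A.

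HSPA8 (ENSG00000109971, chromosome 11, 123057489 to 123063230 on the minus strand) encodes the constitutive HSP70 of the cytosol, which also uncoats clathrin vesicles. The annotated genes SNORD14C, SNORD14D and SNORD14E overlap it on the same strand. HSPA8 stood at 209, 223 and 264 CPM (lowest, median, highest) in WT_shCTRL, against 218.5, 237 and 257 CPM in WT_shPTPN6, whose libraries overlapped throughout. Values in CD33KO_shCTRL went from 319 over 373 to 403 CPM, and CD33KO_shPTPN6 replicates 1, 3, 4, 5 and 6 held 305, 307, 307, 302 and 308 CPM. The latter group lay between the wild-type groups and CD33KO_shCTRL without touching either. HSPA8 was higher in the knockout by 0.68 ± 0.05 and fell with the knockdown in the knockout by 0.28 ± 0.06 (edgeR quasi-likelihood adjusted p = 2.83e-22 and 1.56e-05), while its change in wild type was 0.03 ± 0.05 (95% interval -0.07 to 0.14, edgeR adjusted p = 0.578), or -0.048 with scaling by library total. The interaction was -0.32 ± 0.08 (edgeR adjusted p = 0.000524).

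HSPH1 (ENSG00000120694, chromosome 13, 31134974 to 31162388 on the minus strand) encodes HSP110, which releases ADP from HSP70 and takes part in pulling apart aggregates. HSPH1 stood at 258, 294 and 304 CPM (lowest, median, highest) in WT_shCTRL, against 259, 268 and 279 CPM in WT_shPTPN6. In CD33KO_shCTRL it ran from 534 over 550.2 to 584 CPM, and CD33KO_shPTPN6 replicates 1, 3, 4, 5 and 6 held 410.4, 365, 404, 350.0 and 372 CPM. Both wild-type groups overlapped, and the 2 knockout groups stood above them and apart from each other. The knockout effect was 0.95 ± 0.05 or 1.93-fold (edgeR quasi-likelihood adjusted p = 2.25e-36), and the knockdown lowered HSPH1 in the knockout by a log2 fold change of -0.54 ± 0.05 (edgeR adjusted p = 7.78e-17). In wild type the knockdown estimate was -0.10 ± 0.05 (edgeR adjusted p = 0.0683), which became a call without WT_shCTRL replicate 6 (-0.11, edgeR adjusted p = 0.0266) and with scaling by library total (-0.18, edgeR adjusted p = 0.000413). The effects in the 2 lines differed by -0.44 ± 0.07 (edgeR adjusted p = 7.86e-08).

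DNAJB1 (ENSG00000132002, chromosome 19, 14514770 to 14529770 on the minus strand) encodes HSP40, the J-domain protein that hands clients to HSP70. DNAJB1 stood at 76.3, 87.1 and 102 CPM (lowest, median, highest) in WT_shCTRL, against 86.3, 98.01 and 115 CPM in WT_shPTPN6. The CD33KO_shCTRL libraries ran from 139 over 167 to 176 CPM, and CD33KO_shPTPN6 replicates 1, 3, 4, 5 and 6 held 181, 158, 158, 154 and 155 CPM. The knockout libraries all stood above the wild-type ones, with overlap within each line. DNAJB1 was higher in the knockout by 0.84 ± 0.06 or 1.79-fold (edgeR quasi-likelihood adjusted p = 1.24e-21). The knockdown estimate in the knockout was -0.0024 ± 0.07 (95% interval -0.14 to 0.14, edgeR adjusted p = 0.983). The small rise with the knockdown in wild type, 0.16 ± 0.06 (edgeR adjusted p = 0.0285), was lost without WT_shCTRL replicate 3 (0.12, edgeR adjusted p = 0.0936), without WT_shPTPN6 replicate 3 (0.12, edgeR adjusted p = 0.12), with DESeq2 (adjusted p = 0.0575), with scaling by library total (0.07, edgeR adjusted p = 0.327) and with every library thinned to the smallest total (0.04, edgeR adjusted p = 0.724), over a range of 0.00495 to 0.724. The interaction was not called (-0.16 ± 0.09, edgeR adjusted p = 0.218). DNAJB1 overlaps TECR and MIR639 on the other strand. Its counts are uncertain because whether reads were assigned by strand is not given in the sources used here.

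BAG3 (ENSG00000151929, chromosome 10, 119651370 to 119677819 on the plus strand) encodes the exchange factor that couples HSP70 to selective autophagy. BAG3 stood at 55.0, 61.1 and 69.5 CPM (lowest, median, highest) in WT_shCTRL, against 83.1, 88.9 and 91.8 CPM in WT_shPTPN6. Values in CD33KO_shCTRL went from 95.3 over 112 to 128 CPM, and CD33KO_shPTPN6 replicates 1, 3, 4, 5 and 6 held 119.5, 117, 130.2, 114 and 124 CPM. WT_shCTRL was below all other groups, WT_shPTPN6 lay below both knockout groups, and those 2 overlapped. The knockout effect was 0.87 ± 0.07 or 1.83-fold and the knockdown effect in wild type 0.53 ± 0.06 or 1.44-fold (edgeR quasi-likelihood adjusted p = 1.11e-22 and 2.79e-12). In the knockout the knockdown estimate was 0.11 ± 0.07 (95% interval -0.03 to 0.25, edgeR adjusted p = 0.221), and the interaction was -0.42 ± 0.10 (edgeR adjusted p = 0.000222).

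HSP90AA1 (ENSG00000080824, chromosome 14, 102080738 to 102139699 on the minus strand) encodes the inducible cytosolic HSP90. HSP90AA1 stood at 1358, 1391 and 1425 CPM (lowest, median, highest) in WT_shCTRL, against 979, 1028 and 1234 CPM in WT_shPTPN6. In CD33KO_shCTRL it ran from 1876 over 1994 to 2287 CPM, and CD33KO_shPTPN6 replicates 1, 3, 4, 5 and 6 held 1466, 1324, 1497, 1357 and 1274 CPM. CD33KO_shPTPN6 overlapped WT_shCTRL, with CD33KO_shCTRL above both and WT_shPTPN6 below both. The knockout raised HSP90AA1 by 0.55 ± 0.05 (edgeR quasi-likelihood adjusted p = 7.85e-20), and the knockdown gave -0.40 ± 0.05 in wild type and -0.56 ± 0.05 in the knockout (edgeR adjusted p = 3.53e-13 and 3.86e-18). With both changes the difference from WT_shCTRL was -0.01 ± 0.05 (95% interval -0.11 to 0.09, edgeR adjusted p = 0.872), although with scaling by library total it was -0.15 and called (edgeR adjusted p = 0.00357). The interaction of -0.15 ± 0.07 was not called (edgeR adjusted p = 0.0793) and became a call without 1 library in 7 cases, at an adjusted p of 0.028 to 0.0499: WT_shCTRL replicates 4 and 6, WT_shPTPN6 replicates 3, 4 and 6, CD33KO_shCTRL replicate 5 and CD33KO_shPTPN6 replicate 4. HSP90AA1 overlaps WDR20 on the other strand.

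HSPD1 (ENSG00000144381, chromosome 2, 197486581 to 197516737 on the minus strand) encodes HSP60, the mitochondrial chaperonin. HSPD1 stood at 206, 215 and 232 CPM (lowest, median, highest) in WT_shCTRL, against 137, 139.9 and 148 CPM in WT_shPTPN6. The CD33KO_shCTRL libraries ran from 255 over 273 to 284 CPM, and CD33KO_shPTPN6 replicates 1, 3, 4, 5 and 6 held 132, 129.8, 139, 123 and 119 CPM. Both knockdown groups lay below both control-vector groups and overlapped each other. HSPD1 rose with the knockout by 0.31 ± 0.05 and had knockdown effects of -0.62 ± 0.05 in wild type and -1.07 ± 0.06 in the knockout (edgeR quasi-likelihood adjusted p = 2.79e-08, 7.47e-22 and 3.34e-32), the latter a 2.10-fold fall. These knockdown effects differed by -0.45 ± 0.08 (edgeR adjusted p = 8.6e-07). HSPE1, its co-chaperonin, is the neighbour on the other strand and overlaps HSPD1, as do HSPE1-MOB4 and MOB4 on that strand. Without the strand setting the counts of HSPD1 and HSPE1 are uncertain. HSPE1 had a mean of 87.6 ± 6.03 CPM for WT_shCTRL, 115 ± 5.29 for WT_shPTPN6, 107 ± 10.97 for CD33KO_shCTRL and 97.8 ± 10.3 for CD33KO_shPTPN6 (SD, n = 6, 6, 6 and 5). It therefore rose by 0.39 ± 0.06 with the knockdown in wild type, where HSPD1 fell (edgeR adjusted p = 1.19e-08). Annotated pseudogenes of HSPD1 held 3.46% of the counts of HSPD1 and those pseudogenes together.

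HSPB1 (ENSG00000106211, chromosome 7, 76302544 to 76304295 on the plus strand) encodes the small heat shock protein HSP27. HSPB1 stood at 345, 364 and 382 CPM (lowest, median, highest) in WT_shCTRL, against 449, 461 and 473 CPM in WT_shPTPN6. Values in CD33KO_shCTRL went from 287 over 308 to 337 CPM, and CD33KO_shPTPN6 replicates 1, 3, 4, 5 and 6 held 351, 358, 349.65, 333 and 317 CPM. WT_shPTPN6 stood above all other groups, and WT_shCTRL and CD33KO_shCTRL did not overlap each other but both overlapped CD33KO_shPTPN6. The knockout effect was -0.24 ± 0.05, the only fall among the 10 genes, and the knockdown raised HSPB1 by 0.34 ± 0.04 in wild type (edgeR quasi-likelihood adjusted p = 6.39e-06 and 7.17e-11). In the knockout the knockdown effect of 0.14 ± 0.05 (edgeR adjusted p = 0.0183) was lost without CD33KO_shCTRL replicate 6 (0.12, edgeR adjusted p = 0.0624), without CD33KO_shPTPN6 replicate 3 (0.13, edgeR adjusted p = 0.0562), in thinned libraries (0.13, edgeR adjusted p = 0.0693) and with scaling by library total (0.05, edgeR adjusted p = 0.397), over a range of 0.00681 to 0.397. The interaction of -0.19 ± 0.07 (edgeR adjusted p = 0.0214) was lost without CD33KO_shPTPN6 replicate 6 (-0.17, edgeR adjusted p = 0.0674; range 0.00582 to 0.0674). Of the end windows of HSPB1 21.7% also occurred in another gene, mainly the pseudogene HSPB1P1, while its annotated pseudogenes held 0.0703% of the counts of HSPB1 and those pseudogenes together.

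HSF1 (ENSG00000185122, chromosome 8, 144291591 to 144314722 on the plus strand) encodes the transcription factor of the heat shock response. HSF1 stood at 83.9, 91.6 and 94.7 CPM (lowest, median, highest) in WT_shCTRL, against 107, 118 and 137 CPM in WT_shPTPN6. In CD33KO_shCTRL it ran from 95.3 over 100.5 to 114 CPM, and CD33KO_shPTPN6 replicates 1, 3, 4, 5 and 6 held 108, 117, 122, 109 and 113 CPM. WT_shCTRL was below all other groups, and those 3 overlapped. The knockdown raised HSF1 in wild type by 0.39 ± 0.06 (edgeR quasi-likelihood adjusted p = 4.53e-09). The knockout effect of 0.16 ± 0.06 (edgeR adjusted p = 0.0201) was lost without WT_shCTRL replicate 6 (0.13, edgeR adjusted p = 0.0712), without CD33KO_shCTRL replicate 6 (0.12, edgeR adjusted p = 0.108), with scaling by library total (0.11, edgeR adjusted p = 0.138) and with no filter on low counts (0.12, edgeR adjusted p = 0.211), over a range of 0.0158 to 0.211. The knockdown effect in the knockout, 0.17 ± 0.07 (edgeR adjusted p = 0.0489), passed the threshold in 9 of 30 alternatives (range 0.0247 to 0.397). It missed it without any 1 of WT_shCTRL replicates 1 to 5, WT_shPTPN6 replicates 1, 4 and 6, CD33KO_shCTRL replicates 1, 2, 4 and 5 and CD33KO_shPTPN6 replicates 3, 4 and 6, and with DESeq2 (adjusted p = 0.0518). Among the other settings it was also missed with scaling by library total (0.08, edgeR adjusted p = 0.397), in thinned libraries (0.14, edgeR adjusted p = 0.206), with no filter on low counts (edgeR adjusted p = 0.0952), in a fit of only the groups compared (edgeR adjusted p = 0.0736) and with a replicate block (edgeR adjusted p = 0.0591). The interaction of -0.22 ± 0.09 (edgeR adjusted p = 0.0562) passed the threshold in 10 of 29 alternatives, each of which leaves out 1 library (0.0204 to 0.0439): WT_shCTRL replicates 1, 2 and 4, WT_shPTPN6 replicates 3, 4 and 6, CD33KO_shCTRL replicates 2, 4 and 5 and CD33KO_shPTPN6 replicate 4. HSF1 overlaps DGAT1 and AC233992.1 on the other strand.

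**Figure D2:**
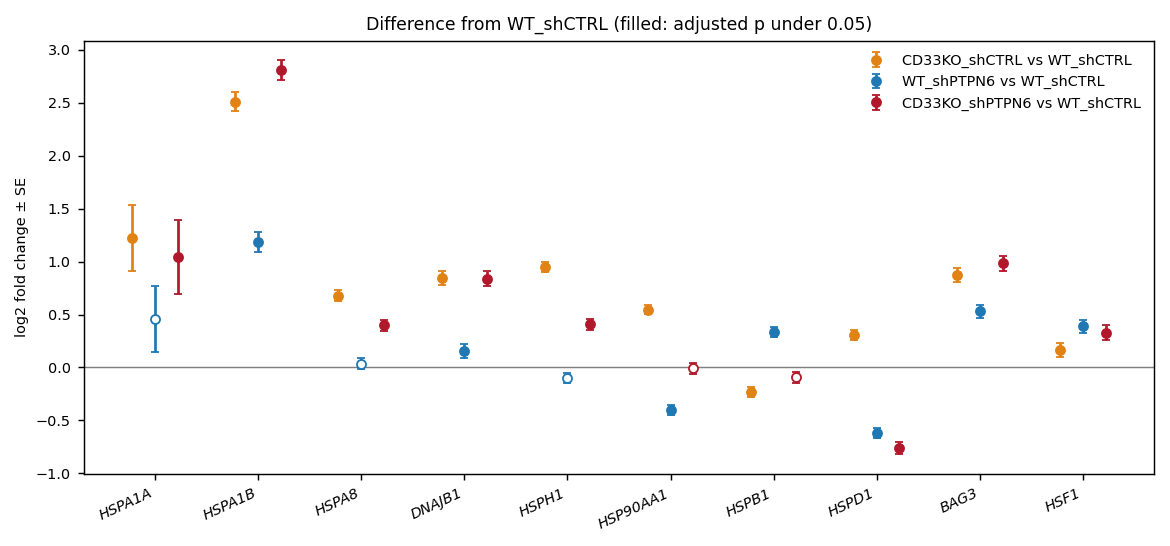
Difference of each gene from WT_shCTRL (log2 fold change, vertical axis; bars are ± SE) for the knockout, the knockdown and both together; filled points passed an adjusted p of 0.05. The knockout is above 0 for every gene but HSPB1, and HSPD1 goes from 0.31 with the knockout to -0.76 with both changes.

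Set in order, CD33KO_shCTRL or CD33KO_shPTPN6 was the highest group for 8 of the 10 genes, and WT_shPTPN6 for HSPB1 and HSF1. Group orders were not counted over all tested genes, so those given here are not shown to be particular to the 10 genes. For HSPA1B, HSPA8, DNAJB1, BAG3 and HSPA1A the means ran from either knockout group over WT_shPTPN6 to WT_shCTRL. Of these lower steps, CD33KO_shPTPN6 against WT_shPTPN6 and WT_shPTPN6 against WT_shCTRL were not called for HSPA1A, with overlap at each (edgeR quasi-likelihood adjusted p = 0.14 and 0.201). The last step was not called for HSPA8 either (edgeR adjusted p = 0.578), and its sign turned with scaling by library total. Elsewhere in the order, neighbours not called were WT_shCTRL and WT_shPTPN6 for HSPH1, and WT_shCTRL and CD33KO_shPTPN6 for HSP90AA1 and HSPB1 (edgeR adjusted p = 0.0683, 0.872 and 0.0872). The first and second group did not differ by the test for HSPA1A, DNAJB1, BAG3 and HSF1 (edgeR quasi-likelihood adjusted p = 0.706, 0.983, 0.221 and 0.476). The ratio of the highest to the lowest group mean was 7.01 for HSPA1B, 2.45 for HSPA1A, 2.10 for HSPD1, 2.06 for HSPH1, 1.98 for BAG3, 1.93 for HSP90AA1, 1.80 for DNAJB1, 1.60 for HSPA8, 1.49 for HSPB1 and 1.31 for HSF1.

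With knockout and knockdown together, against WT_shCTRL, 7 of 10 genes were higher (32.1% of all tested genes) and HSPD1 was lower (31.7%), by the same edgeR test. HSPA1B stood at 2.81 ± 0.09, BAG3 at 0.98 ± 0.07, DNAJB1 at 0.84 ± 0.07, HSPH1 at 0.41 ± 0.05, HSPA8 at 0.40 ± 0.06 and HSF1 at 0.33 ± 0.07 (log2 fold change ± SE), and HSPD1 at -0.76 ± 0.06. HSPA1A, at 1.04 ± 0.35 (edgeR quasi-likelihood adjusted p = 0.00706), lost its call without CD33KO_shPTPN6 replicate 3 (0.81, edgeR adjusted p = 0.0651) and in thinned libraries (0.73, edgeR adjusted p = 0.135). HSPB1 was not called at -0.09 ± 0.05 (edgeR adjusted p = 0.0872), but was lower without WT_shCTRL replicate 3 (edgeR adjusted p = 0.0451), WT_shCTRL replicate 5 (0.0323) or CD33KO_shCTRL replicate 2 (0.0447), with DESeq2 (0.0269) and with scaling by library total (-0.24, edgeR adjusted p = 7.94e-06). With that last scaling 3 of the 10 genes were lower in place of 1, and the median of all genes moved by -0.14.

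Within the knockout, the knockdown raised 3 of 10 genes, HSPA1B, HSPB1 and HSF1 (20.5% of all tested genes), and lowered 4, HSPD1, HSP90AA1, HSPH1 and HSPA8 (21.6%). The groups did not overlap for those 4, nor for 24.2% of all tested genes in either direction, and they overlapped for the other 6. The count of 3 fell to 1 without CD33KO_shPTPN6 replicate 3, with scaling by library total and in thinned libraries, HSPA1B being called in all 3. The share of counts taken by the 10 genes was 0.275% to 0.300% in CD33KO_shPTPN6, below every CD33KO_shCTRL library. That share leans on HSP90AA1, the gene with the most reads and 1 of the 4 that fell.

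Between the knockdown groups, 6 of 10 genes were higher in the knockout (29.0% of all tested genes) and 2 lower (27.5%). HSPA1B differed by 1.63 ± 0.08, DNAJB1 by 0.68 ± 0.07, HSPH1 by 0.50 ± 0.05, BAG3 by 0.45 ± 0.07, HSP90AA1 by 0.39 ± 0.05 and HSPA8 by 0.36 ± 0.06. HSPB1 was lower at -0.43 ± 0.05 (edgeR quasi-likelihood adjusted p = 3.48e-13). HSPD1 was lower at -0.14 ± 0.06 (edgeR adjusted p = 0.0377), a call lost without CD33KO_shPTPN6 replicate 3 (-0.14, edgeR adjusted p = 0.0526), replicate 5 (-0.12, edgeR adjusted p = 0.0921) or replicate 6 (-0.11, edgeR adjusted p = 0.142) and in thinned libraries (-0.16, edgeR adjusted p = 0.0512). HSPA1A and HSF1 were not called, at 0.58 ± 0.34 and -0.06 ± 0.07 (edgeR adjusted p = 0.14 and 0.476).

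**Figure D3:**
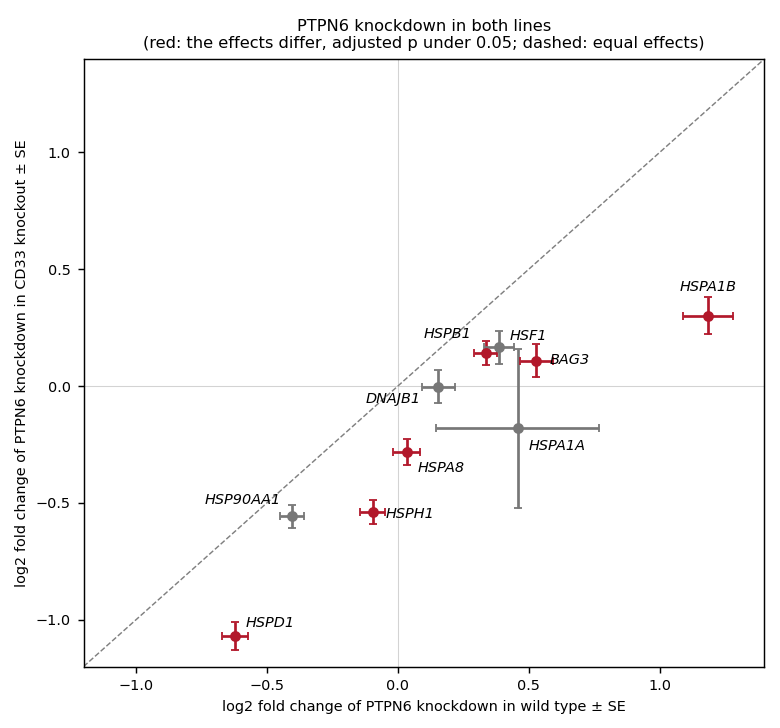
Effect of PTPN6 knockdown on each gene in wild type (horizontal axis) and in the CD33 knockout (vertical axis), as log2 fold change ± SE; red marks genes whose effects differ between the lines and the dashed line marks equal effects. All 10 genes lie below the dashed line, HSPA1B at 1.18 against 0.30 and HSPD1 at -0.62 against -1.07.

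The other chaperone genes were read from 9 lists of 76 genes, of which 67 were tested. In the knockout with control vector 41 of the 67 were higher and 7 lower, with a median of 0.26. In the knockdown in wild type 29 were higher and 14 lower (median 0.09), and the interaction was called higher for 6 and lower for 27 (median -0.21). The genes of these lists are described by counts and medians only, beside the shares of all genes given above.

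Partners of HSP70 and HSP90 were higher more often than lower in the knockout. Of 10 J-domain proteins 8 were higher and none lower by edgeR's test, with DNAJA4, an inducible relative of DNAJB1, at 0.98 ± 0.07. Of 10 genes of HSP90 and its co-chaperones 6 were higher and 3 lower: STIP1, the adaptor that joins HSP70 to HSP90, stood at 1.16 ± 0.05 and PTGES3, the co-chaperone p23, at -0.44 ± 0.05. HSP90AB1, the constitutive partner of HSP90AA1, went from 1573 ± 77.9 CPM in WT_shCTRL to 2973 ± 158 CPM in CD33KO_shCTRL (SD, n = 6 and 6) and stood at 1559.7 ± 59.7 CPM in WT_shPTPN6, where HSP90AA1 fell. Of 9 exchange and partner factors of HSP70 5 were higher and none lower, with BAG6 at 0.56 ± 0.05, and of 5 tested genes of the HSP70 and HSP110 family 3 were higher and 1 lower, with HSPA4 at 0.46 ± 0.05 and HSPA12A at -0.58 ± 0.21.

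Of 8 subunits of the cytosolic chaperonin TRiC 5 were higher and 2 lower in the knockout, CCT5 at 0.71 ± 0.04 and CCT8 at -0.37 ± 0.05, and with the knockdown in the knockout none was higher and 7 were lower. Of 11 mitochondrial chaperones and proteases 6 were higher and none lower in the knockout, with the protease LONP1 at 0.77 ± 0.09. The knockdown in wild type left 7 of those 11 higher and none lower, TRAP1, the mitochondrial HSP90, at 0.63 ± 0.07, where HSPD1 fell. Of 9 other heat-inducible genes 7 were higher and none lower in the knockout, led by the autophagy receptor SQSTM1 at 2.11 ± 0.05. Of the small heat shock proteins 2 of 7 were tested, and HSPB7 was lower in the knockout at -1.89 ± 0.20 at a mean of 7.24 CPM over all libraries.

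With the knockdown in wild type, DNAJB6, a J-domain protein that suppresses aggregation, stood at 0.60 ± 0.05 and DNAJA1, another partner of HSP70, at -0.61 ± 0.05. FKBP4, an immunophilin of HSP90 complexes, stood at 0.66 ± 0.09 and UNC45A, a myosin co-chaperone, at -0.96 ± 0.09. SQSTM1 was higher at 0.84 ± 0.05, and RGS2, a regulator of G protein signalling, was lower at -1.58 ± 0.05. BAG4 stood at 0.51 ± 0.11, CCT3 at 0.37 ± 0.05 and CCT8 at -0.71 ± 0.05. Of the other heat shock factors, HSF2 was higher in the knockout by 0.35 ± 0.08 and lower with the knockdown in wild type at -0.63 ± 0.08, where HSF1 rose (edgeR quasi-likelihood adjusted p = 2.79e-05 and 3.53e-12). Its mean level was 56.8 ± 6.06 CPM for WT_shCTRL, 36.6 ± 2.56 for WT_shPTPN6, 72.5 ± 3.86 for CD33KO_shCTRL and 71.5 ± 4.24 for CD33KO_shPTPN6 (SD, n = 6, 6, 6 and 5). The HSF2 interaction was 0.61 ± 0.11 (edgeR adjusted p = 7.13e-06), where the estimates of the 10 genes were all negative and 6 were called. HSBP1, which binds HSF1 trimers, was higher with the knockdown at 0.30 ± 0.05.

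In the interaction 7 of 8 TRiC subunits were lower and CCT8 was higher (0.37 ± 0.07), with TCP1 at -0.47 ± 0.07. Of the 11 mitochondrial genes 6 were lower and none higher, HSPE1 at -0.53 ± 0.10. Of all tested genes 13.9% were lower and 14.5% higher. Called lower and higher were 4 and 1 of 10 HSP90 genes and co-chaperones, and 3 and 0 of 5 HSP70 and HSP110 genes. For J-domain proteins this was 2 and 0 of 10, and for exchange and partner factors of HSP70 2 and 0 of 9. Other heat-inducible genes had 2 lower and 2 higher of 9, and small heat shock proteins 1 and 0 of 2. Of 3 tested heat shock factor and HSF1-binding protein genes, 0 were lower and 2 higher. BAG2 stood at -0.87 ± 0.18, FKBP4 at -0.70 ± 0.15, SQSTM1 at -0.48 ± 0.06 and DNAJC2, a ribosome-bound J-domain protein, at -0.48 ± 0.11. The kinase co-chaperone CDC37 was higher at 0.26 ± 0.07, and RGS2 at 0.87 ± 0.07.

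**Figure D4:**
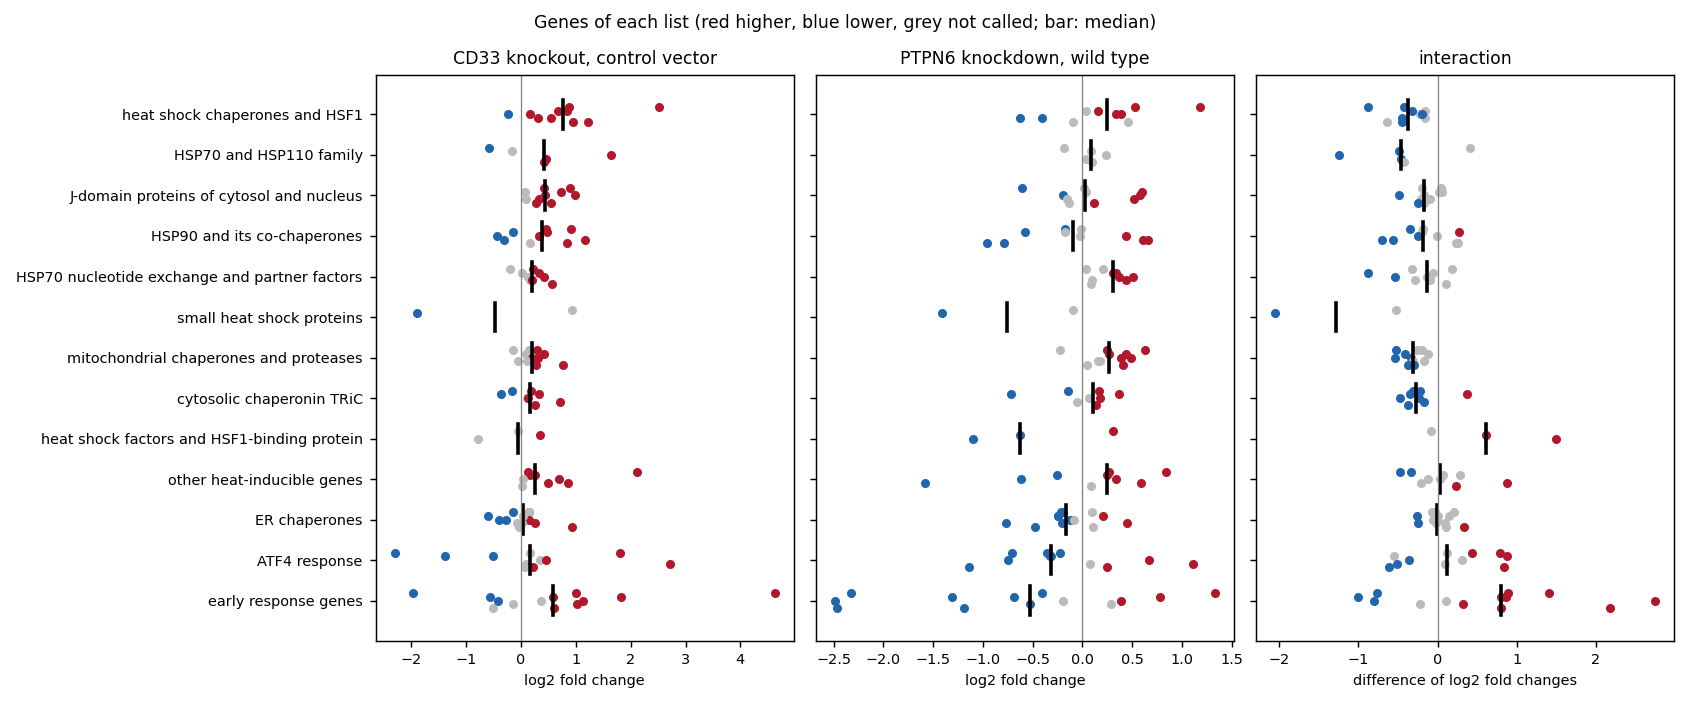
Log2 fold changes of the single genes of each list in the knockout with control vector, in the knockdown in wild type, and in the interaction; red genes were higher, blue lower and grey not called, and the black bar is the list's median. The median of the 10 heat shock genes lies at 0.76, 0.25 and -0.37, and that of the ER chaperones at 0.03, -0.16 and -0.01.

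Lists of other stress programmes were counted the same way. Of all tested genes 28.3% were higher and 28.4% lower in the knockout, and 30.2% and 30.4% with the knockdown in wild type. Of 14 ER chaperones 4 were higher and 4 lower in the knockout (median 0.03), with HSP90B1, the HSP90 of the ER, at -0.61 ± 0.04 and DNAJB9 at 0.92 ± 0.12, and 2 were higher and 8 lower with the knockdown in wild type (median -0.16). Of 11 tested ATF4 response genes 4 were higher and 3 lower in the knockout, with the cystine transporter SLC7A11 at 2.72 ± 0.07 and the serine synthesis enzyme PHGDH at -2.31 ± 0.13. Of 13 tested early response genes 7 were higher and 3 lower in the knockout, led by IER3 at 4.63 ± 0.06, and 3 were higher and 8 lower with the knockdown in wild type, EGR3 at -2.49 ± 0.28. Whether these lists differ from the heat shock genes was not tested.

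Over all 23 libraries, the Pearson r of log2 CPM between pairs of the 10 genes ran from -0.86 to 0.96 over 45 pairs, with HSPA1B and BAG3 at 0.96 and HSP90AA1 and HSPB1 at -0.86. With group means removed it ran from -0.46 to 0.47. The lowest within-group value, -0.46, belonged to HSPA1A and HSPA1B. Among 10885 genes at a mean of 5 CPM or more, those most like HSPA1B over the 23 libraries were SQOR (r = 0.99), RHOBTB3 (0.99) and CEBPB (0.99), and those most like HSPH1 were LPL (0.98), FABP4 (0.98) and HSP90AB1 (0.98). HSPD1 was nearest to the mitotic activator CDC20 (0.98), HSP90AA1 to CD52 (0.98), HSPB1 to AIF1 (0.97), BAG3 to the ferritin chain FTH1 (0.97), DNAJB1 to AHCYL1 (0.97), HSPA8 to TFPI2 (0.96), HSF1 to DESI1 (0.90) and HSPA1A to RNF40 (0.71). These values are descriptions over libraries that share 4 groups.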

How the data were processed

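The authors deposited unnormalized counts of reads for each gene. Libraries were built with a 3' mRNA kit on 100 ng RNA, per the labels' protocols. Per the submitters' processing notes, hg38, STAR 2.7.3a, bcl2fastq, Subread 2.0.0 with featureCounts, DESeq2 1.26.0 and R 3.6.1 are named, with no roles stated; annotation release, strand setting and treatment of duplicates are not given in the sources used here. Without strand, a gene and an overlapping gene on the other strand cannot be told apart.

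In R 4.3.3, edgeR 4.0.16 filtered genes by group (filterByExpr, 13098 left), scaled by TMM and fitted 1 model with a mean per group to 23 of 24 labelled libraries (robust quasi-likelihood). Then 6 contrasts were tested, with Benjamini-Hochberg adjustment over all genes at 0.05. The SE is |log2 fold change| / √F, and intervals are 95%. Alternatives were DESeq2 1.42.0, RLE or library-total scaling, no filter, a replicate block, only the compared groups, libraries thinned to the smallest total, HSPA1A and HSPA1B summed, and each library left out. No pair of libraries in a group was a duplicate (chi-square per degree of freedom at least 1.52). The pipeline was tested on simulated data.

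The genes and lists were chosen with earlier results of these data known. Named beside the 10 genes are, per list, the largest called rise and fall in the knockout, the knockdown and the interaction at a mean of 5 CPM or more, the 3 genes most like each by r (shown in part), and, chosen after their values were seen, the group levels of HSPE1, HSP90AB1 and HSF2. Positions and overlaps came from GENCODE release 29 (GRCh38), promoters from RefSeq; HSPB11 matched no identifier.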

Additional observations from a re-analysis of the deposited data

Results flagged for a closer look

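Among 40 sets of libraries (10 genes in 4 groups), 2 held a library far from the other libraries by Dixon's 95% criterion, which chance alone meets in about 1 of 20 sets. DNAJB1 stood at 181 CPM in CD33KO_shPTPN6 replicate 1, where the next library held 158 CPM. HSP90AA1 stood at 1234 CPM in WT_shPTPN6 replicate 5, where the next held 1063.5 CPM.

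The effect of PTPN6 knockdown differed between the lines for 6 genes (edgeR quasi-likelihood test of the interaction). Subtracting the wild-type effect from the knockout one gave -0.88 for HSPA1B, -0.45 for HSPD1, -0.44 for HSPH1, -0.42 for BAG3, -0.32 for HSPA8 and -0.19 for HSPB1 on the log2 scale. For HSPH1 and HSPA8 the knockdown gave a called fall in the knockout and no call in wild type.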

How the results depend on the processing

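Over 60 results (10 genes in 6 comparisons) the alternatives gave 1802 values: 1716 kept direction and call, 42 lost the call, 29 gained one and 15 turned direction, and 42 results kept both throughout. In the knockout with control vector, all results but that of HSF1 were among those 42.

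Against WT_shCTRL, the count of genes lower in CD33KO_shPTPN6, 1 of 10, was 2 with DESeq2, 3 with library-total scaling and 1 to 2 with a library left out. Within the knockout the count higher with the knockdown, 3, was 1 with library-total scaling and in thinned libraries and 1 to 3 with a library left out. Between the knockdown groups the count lower, 2, was 1 with the replicate block, 1 in thinned libraries and 1 to 2 with a library left out; the block took HSPD1 there to -0.13 (edgeR adjusted p = 0.0566) and HSF1 with the knockdown in the knockout to an edgeR adjusted p of 0.0591, and changed no other call. Same-numbered libraries did not deviate together over all tested genes (r from -0.049 to 0.032 over 33 pairs, 3 of 23 libraries correlating best with their own number). This does not settle whether same-numbered samples were grown or processed together. The cause of the shifts in these counts was not tested.

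Estimates near 0 turned direction. HSPA8 with the knockdown in wild type was -0.048 with library-total scaling. HSP90AA1 in CD33KO_shPTPN6 against WT_shCTRL was -0.0385 to 0.0206 with a library left out, above 0 without CD33KO_shPTPN6 replicate 3 (0.0085) or 6 (0.0206). The row summed from HSPA1A and HSPA1B, mostly reads of HSPA1B, was 0.2766 with the knockdown in the knockout and was counted as a turn of HSPA1A. HSPA1A alone did not turn there, at -0.4126 to -1e-04 with a library left out. DNAJB1 in that comparison was 0.0101 with no filter, 0.0131 with the replicate block, 0.0254 in thinned libraries and -0.0436 to 0.0204 with a library left out.

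Library-total scaling moved the median of all genes by -0.14 in CD33KO_shPTPN6 against WT_shCTRL and took the share of higher calls from 50.3% to 37.9% there and from 48.7% to 35.6% within the knockout. At 3 to 23 counts per library, HSPA1A allows no close estimate. A fit of only the compared groups was not run for the interaction, which uses all 4.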
